A study of Homo sapiens with 6 samples.

Results

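The 10 genes described here are the 5 NF-κB subunits (NFKB1, NFKB2, REL, RELA and RELB), 3 IκB inhibitors (NFKBIA, NFKBIB and NFKBIE) and 2 feedback targets of NF-κB (TNFAIP3 and BIRC3). They were taken by gene symbol from a table of 19727 genes, and each symbol had 1 row. All 10 reached the mean of 1 FPKM (fragments per kilobase of transcript, scaled to the depth of the library) that was set for testing, as did 12322 of the 19727 genes. The table holds RNA-seq of DU145, an established human prostate cancer cell line, in 6 libraries. The labels give DU145 and prostate for all 6, although their extraction text also mentions an adipose type. In 3 of them (genotype "normal" in the labels) the cells carried the control lentivirus-NC, and in the other 3 (genotype "circCSPP1 overexpression") they carried lentivirus-circCSPP1, which expresses a circular RNA derived from the gene CSPP1. Both groups were puromycin-selected stable lines of the same parent, 1 vector per group. Whether the 3 libraries of a group came from separate cultures is not stated, so p-values measure only the spread between these libraries, which may be technical. The study sequenced these cells to look for genes that respond to circCSPP1. The comparison below asks how the mRNAs of NF-κB and of its inhibitors differed between the lines.

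NF-κB is a family of dimeric transcription factors. In resting cells most dimers are held in the cytoplasm by IκB proteins, and signals from cytokine and pattern recognition receptors activate kinases that mark IκB for degradation, which lets the dimers enter the nucleus. RELA with the product of NFKB1 forms the main dimer of the canonical branch, RELB with the product of NFKB2 that of the non-canonical branch, and genes for several subunits, for IκB proteins and for TNFAIP3 and BIRC3 are themselves NF-κB targets, which gives the pathway its feedback loops. NF-κB is known to be active in DU145 and other androgen-independent prostate cancer lines without added ligand.

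The sequences by which NF-κB acts on its target genes are κB sites, sought here in promoters. RefSeq promoter windows (GRCh38.p14, 250 bases before to 50 bases after a transcription start) were found for 8 of the 10 genes, not for RELB and NFKBIE, and were searched on both strands for the κB consensus, with overlapping matches merged. A match was present in at least 1 window of 7 of these 8 genes and in neither window of RELA, against 11.3% of all 35116 windows, 13.3% of the 27305 genes with a window and 17.6% of the 9725 tested genes with one. A match is a description of the letters, not a site shown to be bound. The 30 bases around matches of 2 genes whose mRNA was higher with lentivirus-circCSPP1 (NFKB2 and NFKBIB) and of 3 genes that did not pass the test (NFKBIA, TNFAIP3 and BIRC3) are shown on the strand of the gene, with the matching bases in capitals.
NFKB2 (chr10:102394461-102394490, plus strand): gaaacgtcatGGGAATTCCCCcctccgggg
NFKB2 (chr10:102394490-102394519, plus strand): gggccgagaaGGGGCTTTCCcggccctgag
NFKBIB (chr19:38899931-38899960, plus strand): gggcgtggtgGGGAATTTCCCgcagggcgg
NFKBIA (chr14:35404811-35404840, minus strand): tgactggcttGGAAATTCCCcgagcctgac
TNFAIP3 (chr6:137867188-137867217, plus strand): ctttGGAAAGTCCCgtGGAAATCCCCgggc
BIRC3 (chr11:102317275-102317304, plus strand): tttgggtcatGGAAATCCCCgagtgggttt
BIRC3 (chr11:102317339-102317368, plus strand): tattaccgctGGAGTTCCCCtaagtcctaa
Such a match was therefore found in promoters of members on either side of the test, while RELA, which rose, had none. The 10 genes were chosen as NF-κB genes, several of them known targets. The share of them with a match thus describes that choice and not the difference between the lines.

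The 3 lentivirus-NC libraries read 9.11, 10.08 and 9.44 FPKM for CSPP1 itself and the 3 lentivirus-circCSPP1 libraries 14.47, 22.76 and 21.36 FPKM. This was higher with the vector, the direction of the labels, although a gene-level value cannot separate linear from circular RNA or the vector. The libraries were made from polyadenylated RNA. By qRT-PCR the paper reports that its lentivirus vectors changed circCSPP1 and not linear CSPP1 mRNA. Which RNA the higher CSPP1 value reflects was not tested. The estimated depth was 28900000 to 36500000 fragments per library and overlapped between the groups. KRT8, KRT18, EPCAM and CDH1, markers of an epithelial line, were present in all 6 libraries. Their summed level was 1729 to 1801 FPKM with lentivirus-NC and 715 to 854 FPKM with lentivirus-circCSPP1, and all 4 fell (log2 fold changes of -1.42, -0.85, -0.67 and -1.58, adjusted p of at most 0.017). EPCAM missed the threshold without any 1 lentivirus-NC library or without lentivirus-circCSPP1 replicate 3 (adjusted p of 0.052 to 0.084). KLK3 and TMPRSS2, markers of androgen-dependent prostate cells, were at or near 0 FPKM. Of the markers of fibroblasts, leukocytes and endothelium, COL1A1 (3.26 FPKM with lentivirus-NC, 1.15 with lentivirus-circCSPP1) and CD68 (47.3 and 41.0 FPKM) reached a mean of 1 FPKM, and PTPRC, the defining leukocyte marker, stayed near 0. The part of the epithelial marker difference in the results below was not tested.

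Replicate 1 of lentivirus-circCSPP1 stood apart. Across 12305 tested genes with a GENCODE transcript, its departure from the other libraries of its group rose with the GC content of the transcript (Spearman correlation 0.784). Replicates 2 and 3, each set against the rest of that group, which includes replicate 1, gave -0.733 and -0.482, while the values for the lentivirus-NC libraries lay between -0.056 and 0.098. Results are therefore given as deposited, after a correction of each library for GC content and transcript length, and without this library. The difference between the groups followed GC content much less (Spearman correlation of the log2 fold change with GC content, 0.054).

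RELA, RELB and NFKB2 rose with lentivirus-circCSPP1. RELA, the transactivating subunit of the canonical dimer (chr11:65653596-65663094, minus strand), read 82.59, 75.09 and 71.77 FPKM with lentivirus-NC (replicates 1, 2 and 3, the order kept below) and 119.58, 107.91 and 112.02 FPKM with lentivirus-circCSPP1. The groups did not overlap, and the lowest lentivirus-circCSPP1 library was well above the highest lentivirus-NC library. The mean went from 76.5 ± 5.54 to 113 ± 5.92 FPKM (SD, n = 3 each), a 1.48-fold difference (log2 fold change of FPKM + 1, 0.56, standard error 0.087; adjusted p = 0.010, limma with Benjamini-Hochberg adjustment over all tested genes).

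RELB, the transactivating partner of the NFKB2 product (chr19:45001430-45038198, plus strand), read 27.06, 24.32 and 24.36 FPKM with lentivirus-NC and 55.49, 41.93 and 44.31 FPKM with lentivirus-circCSPP1. Every lentivirus-circCSPP1 library was higher, with replicate 1 the highest. The mean rose from 25.2 ± 1.57 to 47.2 ± 7.24 FPKM, a 1.87-fold difference and the largest rise among the 10 genes (log2 fold change 0.87, standard error 0.12, adjusted p = 0.0075).

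NFKB2, which encodes a precursor that both inhibits and, once processed, forms the non-canonical dimer (chr10:102394110-102402529, plus strand), read 105.02, 109.07 and 89.66 FPKM with lentivirus-NC and 170.72, 146.02 and 138.48 FPKM with lentivirus-circCSPP1. Again the groups did not overlap and replicate 1 of lentivirus-circCSPP1 was the highest. The mean rose 1.499-fold, from 101 ± 10.2 to 152 ± 16.9 FPKM (log2 fold change 0.58, standard error 0.11, adjusted p = 0.020). With lentivirus-NC it was the most abundant subunit mRNA per length, above RELA in every library.

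NFKB1, the precursor of the DNA-binding partner of RELA (chr4:102501329-102617302, plus strand), read 40.77, 39.20 and 39.19 FPKM with lentivirus-NC and 48.06, 49.73 and 46.13 FPKM with lentivirus-circCSPP1. These values were tight within each group and did not overlap, but the difference was small, 39.7 ± 0.909 against 48.0 ± 1.80 FPKM. The log2 fold change of 0.27 (standard error 0.080, 95% interval 0.079 to 0.45) did not pass the adjusted test (adjusted p = 0.075).

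REL, a transactivating subunit best known from lymphocytes (chr2:60881521-60931610, plus strand), was the least abundant of the 10. It read 6.19, 6.24 and 5.94 FPKM with lentivirus-NC and 4.33, 6.99 and 5.53 FPKM with lentivirus-circCSPP1. The lentivirus-circCSPP1 libraries lay on either side of the lentivirus-NC libraries, and the difference was not detectable against this spread (log2 fold change -0.13, standard error 0.16, 95% interval -0.49 to 0.24, adjusted p = 0.65). Without replicate 1 of lentivirus-circCSPP1 the estimate changed sign, to 0.020.

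**Figure D1:**
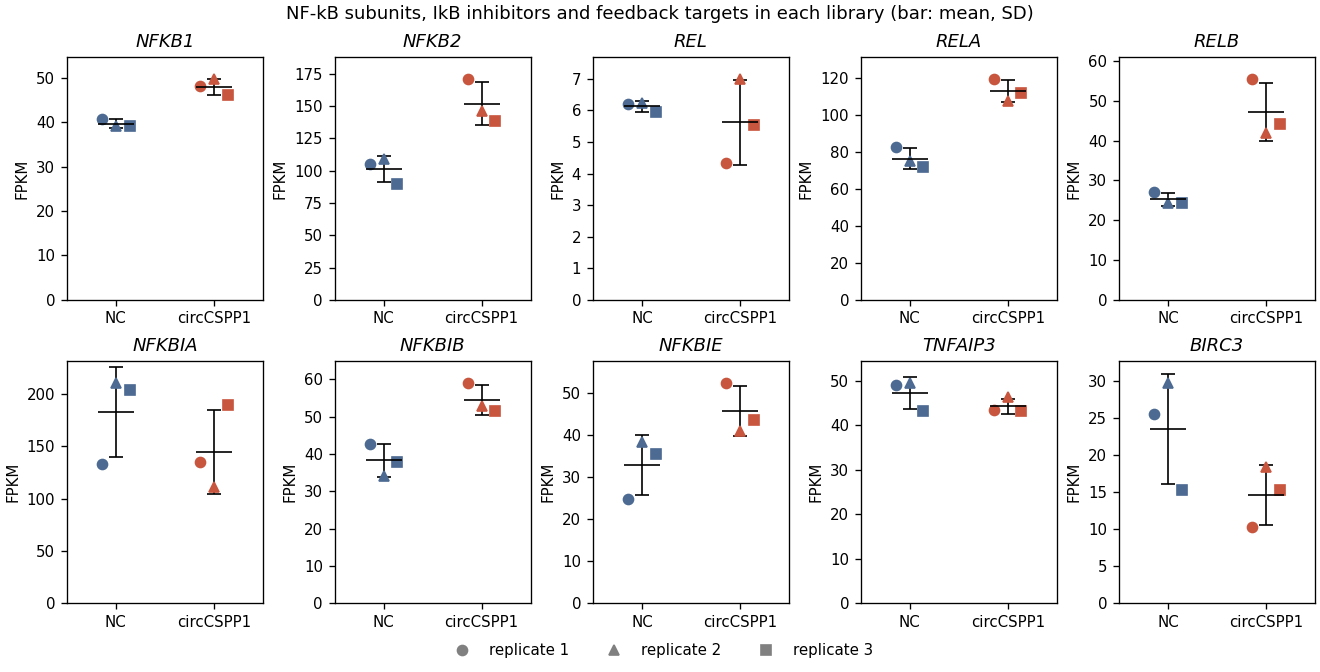
FPKM (y axis, from 0, scaled per gene) of the 10 genes in each library, lentivirus-NC in blue and lentivirus-circCSPP1 in red, with 1 marker shape per replicate number and the mean and SD (n = 3) as bars. NFKB1, NFKB2, RELA, RELB, NFKBIB and NFKBIE show no overlap between the groups, and REL, NFKBIA, TNFAIP3 and BIRC3 overlap.

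Among the inhibitors, NFKBIB rose, and NFKBIA and NFKBIE did not pass the test. NFKBIA, the inhibitor that NF-κB induces most rapidly (chr14:35401511-35404749, minus strand), was the most abundant of the 10 with lentivirus-NC and had the largest SD in FPKM. It read 133.34, 210.74 and 203.81 FPKM with lentivirus-NC and 134.97, 110.64 and 188.89 FPKM with lentivirus-circCSPP1. The groups overlapped, with 1 low library among the former and 1 high library among the latter. The means were 183 ± 42.8 and 145 ± 40.0 FPKM (log2 fold change -0.34, standard error 0.23, adjusted p = 0.39). The 95% interval, -0.89 to 0.21, leaves room for a fall as well as for a small rise.

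NFKBIB, an inhibitor known to be resynthesized slowly after stimulation (chr19:38899700-38908893, plus strand), read 42.78, 34.15 and 37.95 FPKM with lentivirus-NC and 59.15, 52.97 and 51.54 FPKM with lentivirus-circCSPP1. All 3 lentivirus-circCSPP1 libraries were higher. The mean went from 38.3 ± 4.33 to 54.6 ± 4.04 FPKM, a 1.42-fold difference (log2 fold change 0.50, standard error 0.11, adjusted p = 0.029).

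NFKBIE, an inhibitor that binds mainly RELA and REL dimers (chr6:44258166-44265788, minus strand), read 24.75, 38.19 and 35.46 FPKM with lentivirus-NC and 52.41, 40.89 and 43.60 FPKM with lentivirus-circCSPP1. The groups did not overlap, although lentivirus-NC replicate 2 and lentivirus-circCSPP1 replicate 2 were close, and lentivirus-NC replicate 1 was the lowest of all. The means were 32.8 ± 7.10 and 45.6 ± 6.02 FPKM (log2 fold change 0.48, standard error 0.17, adjusted p = 0.12).

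Neither feedback target was higher in the lentivirus-circCSPP1 mean. TNFAIP3, a ubiquitin-editing enzyme that shuts off signalling to the IκB kinase (chr6:137867188-137883312, plus strand), read 49.03, 49.59 and 43.16 FPKM with lentivirus-NC and 43.52, 46.24 and 43.13 FPKM with lentivirus-circCSPP1. The groups overlapped, and the log2 fold change of -0.09 had a narrow interval (95% interval -0.30 to 0.12, adjusted p = 0.57).

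BIRC3, a ubiquitin ligase that acts at the receptor complex and also keeps the non-canonical kinase low (chr11:102317450-102339403, plus strand), read 25.59, 29.82 and 15.35 FPKM with lentivirus-NC and 10.36, 18.41 and 15.27 FPKM with lentivirus-circCSPP1. Its lentivirus-NC replicate 3 lay within the range of the other group. The means were 23.6 ± 7.44 and 14.7 ± 4.06 FPKM (log2 fold change -0.63, standard error 0.28, 95% interval -1.28 to 0.010, adjusted p = 0.18).

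By count, 4 of the 10 genes passed an adjusted p of 0.05 and all 4 were higher, where 11.4% of all tested genes passed, 4.69% higher and 6.66% lower. The groups did not overlap for 6 of the 10 genes, again all higher, where 36.4% of all tested genes did not overlap, 16% higher and 20.5% lower. The median log2 fold change was 0.37 over the 10 genes, 0.56 over the 5 subunits, 0.48 over the 3 inhibitors and -0.36 over the 2 feedback targets, beside -0.028 over all tested genes. In bulk RNA a change in the number of expressing cells and a change in RNA per cell cannot be told apart.

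RELB was the only 1 of the 4 that passed without any single library (adjusted p of at most 0.048). RELA missed the threshold without lentivirus-NC replicate 2 (adjusted p = 0.062) or replicate 3 (adjusted p = 0.054). NFKB2 missed it without any lentivirus-NC library (adjusted p of 0.066 to 0.082) or without lentivirus-circCSPP1 replicate 3 (adjusted p = 0.0503), and NFKBIB missed it in all of these and without lentivirus-circCSPP1 replicate 2, with adjusted p between 0.050 and 0.12. Without moderation of the variance in limma, RELA and RELB passed, NFKB2 (adjusted p = 0.080) and NFKBIB (adjusted p = 0.082) did not, and NFKB1 passed (adjusted p = 0.039). In that fit 834 of all 12322 tested genes passed.

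**Figure D2:**
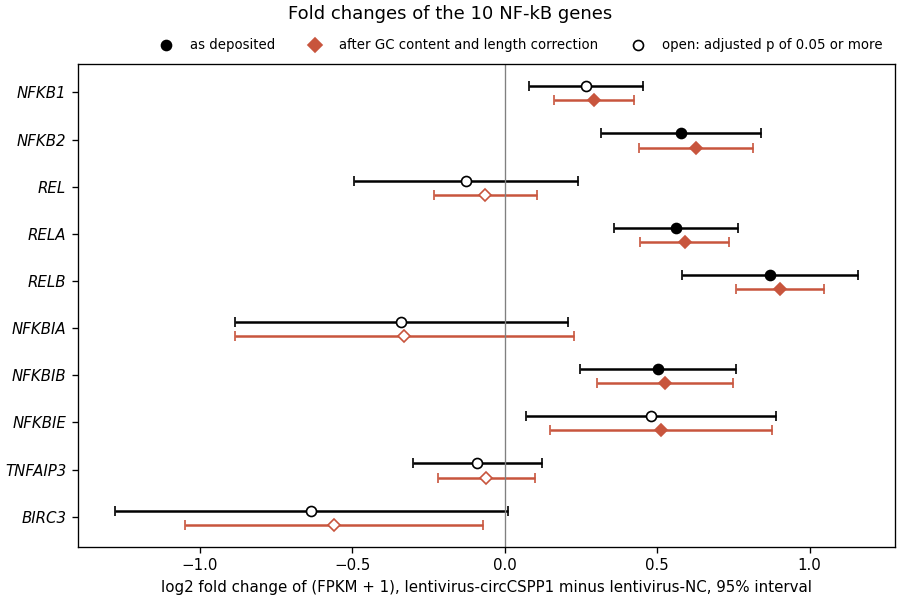
The log2 fold change of FPKM + 1 (x axis, lentivirus-circCSPP1 minus lentivirus-NC, 3 libraries each) with its 95% interval from limma for the 10 genes, as deposited (black circles) and after correction for GC content and length (red diamonds), filled where the adjusted p is under 0.05. The estimates hardly moved while most intervals narrowed, and NFKB1 and NFKBIE are filled only after correction.

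The departure of lentivirus-circCSPP1 replicate 1 in these genes differed by base composition. The GC-rich transcripts of RELB (GC content 65.4%), NFKB2 (62.4%), NFKBIB (62.3%) and NFKBIE (61.0%) were all highest in this library, above the mean of replicates 2 and 3 by 0.36, 0.26, 0.18 and 0.31 on the log2 scale. The AT-rich transcripts of BIRC3 (GC content 34.8%) and REL (38.7%) were lowest there, with departures of -0.65 and -0.44. NFKB1 (50.1%) and TNFAIP3 (49.5%), near the middle, departed by 0.0048 and -0.036. After the correction, which is fitted to this trend over all genes, the departures of the 10 genes lay between -0.14 and 0.037.

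With the correction 6 of the 10 genes passed, all higher, where 28.5% of all tested genes passed and 14.8% were higher. NFKB1 (log2 fold change 0.29, adjusted p = 0.0098) and NFKBIE (0.51, adjusted p = 0.046) joined RELA (0.59), RELB (0.90), NFKB2 (0.63) and NFKBIB (0.53). NFKBIE passed in 1 of 18 alternatives, this one. BIRC3 (-0.56, adjusted p = 0.085) and NFKBIA (-0.33, adjusted p = 0.33) still did not pass. When lentivirus-circCSPP1 replicate 1 was left out instead, 5 of the 10 passed, where 28.5% of all tested genes passed and 13.2% were higher. These were RELB (log2 fold change 0.75, adjusted p = 0.0023), RELA (0.52, 0.0056), NFKB2 (0.49, 0.013), NFKBIB (0.44, 0.022) and NFKB1 (0.26, 0.026). The estimate for RELB was thus lower without the library in which it was highest, and the 4 genes that passed as deposited passed either way.

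**Figure D3:**
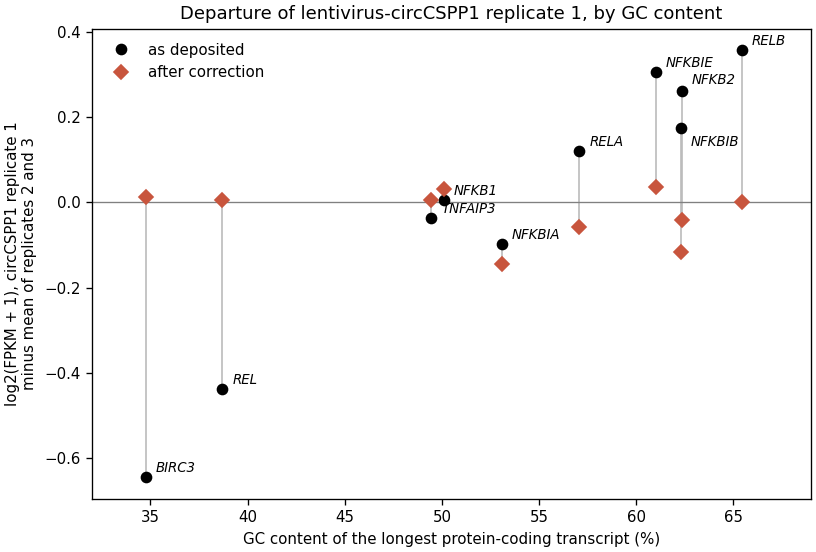
Departure of lentivirus-circCSPP1 replicate 1 from the mean of replicates 2 and 3 (y axis, log2 of FPKM + 1) against the GC content of the longest protein-coding transcript (x axis, percent) for the 10 genes, as deposited (black) and after correction for GC content and length (red), 1 library against 2. BIRC3 and REL lie lowest and RELB highest as deposited, and the departures after correction lie between -0.14 and 0.037.

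Since FPKM is per length, the subunit mRNAs can be summed within a library. The 5 subunits summed to 262, 254 and 231 FPKM with lentivirus-NC and to 398, 353 and 346 FPKM with lentivirus-circCSPP1, so every lentivirus-circCSPP1 library was higher (exact two-sided permutation test, p = 0.10, the smallest that 3 libraries against 3 allow). The 3 inhibitors summed to 201, 283 and 277 FPKM with lentivirus-NC and to 246.5, 205 and 284 FPKM with lentivirus-circCSPP1, which overlapped (exact permutation p = 1). The ratio of summed inhibitors to summed subunits was 0.768, 1.115 and 1.201 with lentivirus-NC and 0.619, 0.580 and 0.820 with lentivirus-circCSPP1. The means were 1.03 ± 0.229 and 0.673 ± 0.129 (SD, n = 3), and the groups overlapped (log2 difference -0.60, exact permutation p = 0.20, where 0.10 is the smallest possible). Lentivirus-NC replicate 1, in which NFKBIA was low, lay between the lentivirus-circCSPP1 libraries. NFKBIA made up 71.5% ± 4.41 of the inhibitor sum with lentivirus-NC and 58.5% ± 6.98 with lentivirus-circCSPP1 (exact permutation p = 0.20).

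RELB held a larger share of the subunit sum, and NFKB1 and REL smaller ones, in each lentivirus-circCSPP1 library than in any lentivirus-NC library. The share of RELB was 10.3%, 9.58% and 10.6% with lentivirus-NC and 13.9%, 11.9% and 12.8% with lentivirus-circCSPP1. NFKB1 held 16.0% ± 0.846 and 13.2% ± 1.03 (SD, n = 3), and REL 2.46% ± 0.103 and 1.56% ± 0.449. Each of these 3 shares separated the groups without overlap (exact permutation p = 0.10, the smallest possible; adjusted over the 5 shares, 0.167), so none passed 0.05. The shares of NFKB2 (40.6% and 41.4%, exact permutation p = 0.80) and RELA (30.7% and 31.0%, exact permutation p = 0.90) overlapped.

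The order of levels per length differed between the groups at the top. With lentivirus-NC the order of the means was NFKBIA, NFKB2, RELA, TNFAIP3, NFKB1, NFKBIB, NFKBIE, RELB, BIRC3 and REL. The ranges of NFKBIA and NFKB2 and those of NFKB2 and RELA did not overlap, while those of TNFAIP3 (43.16 to 49.59 FPKM) and NFKB1 (39.19 to 40.77 FPKM) were close without overlap, and NFKB1, NFKBIB and NFKBIE overlapped from one to the next, as did NFKBIE, RELB and BIRC3. With lentivirus-circCSPP1, NFKB2 (138.48 to 170.72 FPKM) and NFKBIA (110.64 to 188.89 FPKM) overlapped, and so did NFKBIA and RELA. RELB, 8th with lentivirus-NC, came 6th there, in a run of NFKB1, RELB, NFKBIE and TNFAIP3 whose neighbours overlapped, while NFKBIB (51.54 to 59.15 FPKM) lay just above NFKB1 (46.13 to 49.73 FPKM).

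**Figure D4:**
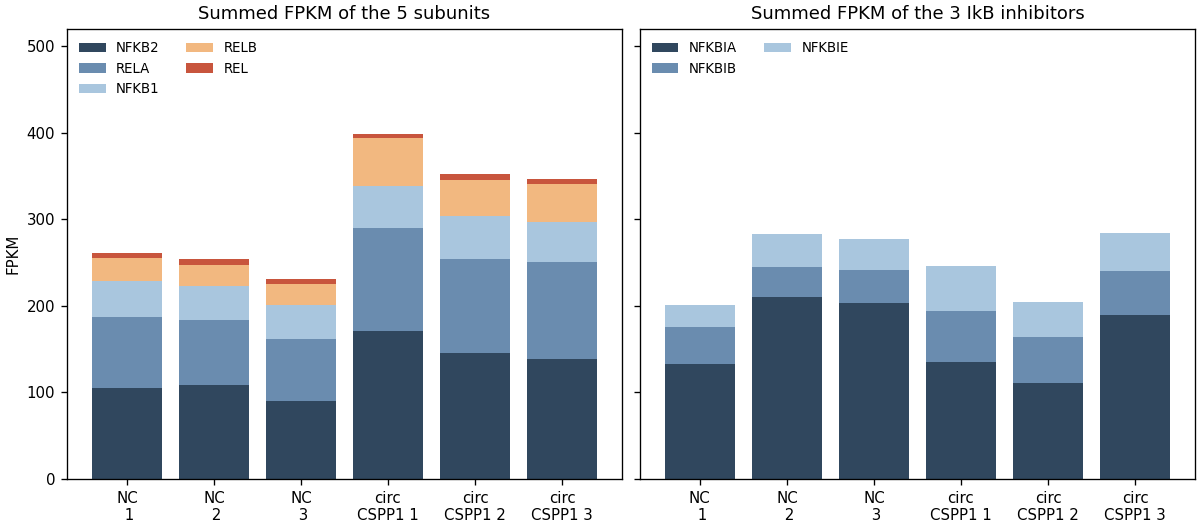
Summed FPKM (y axis, from 0) of the 5 subunits (left) and the 3 IκB inhibitors (right) in each of the 6 libraries, with 1 colour per gene. The subunit sums are 231 to 262 FPKM with lentivirus-NC and 346 to 398 FPKM with lentivirus-circCSPP1, and the inhibitor sums overlap.

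The other genes of the pathway were taken from 6 lists written from general knowledge, but with earlier results of these data known. The shares of these lists that passed, here and below, are therefore descriptions and not independent of the data. Of 78 genes listed, 77 were found in the table (NFKBID was not matched), 68 were tested and 13 passed the test, 9 higher and 4 lower. This is 19.1% of those tested, beside 11.4% of all tested genes, and the median log2 fold change was -0.0041 (all tested genes, -0.028).

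Of 18 receptors and adaptors tested, 2 passed (11.1%, close to the 11.4% of all tested genes). TNFRSF12A, the receptor of the cytokine TWEAK, rose from 146 ± 12.2 to 281 ± 24.0 FPKM (log2 fold change 0.94, adjusted p = 0.0029), and TRAF5, an adaptor of TNF receptors, fell from 7.02, 6.85 and 6.66 FPKM to 4.07, 4.55 and 4.58 FPKM (-0.54, adjusted p = 0.019). TNFRSF12A passed without any single library, and TRAF5 did not pass without any 1 lentivirus-NC library (adjusted p of 0.079 to 0.098) or without lentivirus-circCSPP1 replicate 3 (0.067). None of the 10 genes in the kinase list, which holds kinases and also adaptor or regulatory subunits of kinase complexes, passed as deposited in limma. Of these genes 1 had an unadjusted p under 0.05, as did 3477 of all 12322 tested genes. Neither nuclear IκB protein tested passed (both had an unadjusted p under 0.05), nor did any of 4 genes of the IκB ubiquitin ligase (2 with an unadjusted p under 0.05). Without moderation of the variance 0 genes of these 3 lists passed, beside 834 of all 12322 tested genes. Of 12 genes in the list of ubiquitin editors and other restraints 1 passed (8.33%). RBCK1, a subunit of the linear ubiquitin chain complex and not itself a restraint, rose from 75.6 ± 1.09 to 117 ± 19.7 FPKM (log2 fold change 0.61, adjusted p = 0.020). RBCK1 read 139.60 FPKM in lentivirus-circCSPP1 replicate 1, against 103.10 and 108.60 FPKM in the others, and missed the threshold without any 1 lentivirus-NC library (adjusted p of 0.085 to 0.088) or without lentivirus-circCSPP1 replicate 3 (0.060). After the GC correction 28.5% of all tested genes passed. Of the receptors and adaptors 6 of 18 passed, and of the kinase list 2 of 10. So did 4 of the 12 in the list of ubiquitin editors and restraints, 1 of the 2 nuclear IκB proteins and 1 of the 4 ligase genes.

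Target genes of NF-κB moved in both directions. Of 29 listed, 22 were tested and 10 passed, 7 higher and 3 lower. This is 45.5% of those tested, beside 11.4% of all tested genes (4.69% higher and 6.66% lower). The median log2 fold change of the 22 was 0.063, beside -0.028 over all tested genes. After the GC correction 13 of the 22 passed, 9 higher and 4 lower, where 28.5% of all tested genes passed. The 7 not tested (CCL2, IL1A, IL1B, TNF, VCAM1, PTGS2 and MMP9) were below a mean of 1 FPKM. The neutrophil chemokines CXCL2 and CXCL8 rose. CXCL2 read 45.23, 42.96 and 43.63 FPKM with lentivirus-NC and 107.38, 86.87 and 85.95 FPKM with lentivirus-circCSPP1 (log2 fold change 1.06, adjusted p = 0.0027). CXCL8 read 50.89, 50.83 and 48.25 FPKM against 73.64, 122.06 and 90.40 FPKM (0.89, adjusted p = 0.019).

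IER3, an early response gene linked to survival, went from 154.79, 117.31 and 140.99 FPKM to 207.53, 291.69 and 252.62 FPKM (log2 fold change 0.85, adjusted p = 0.014). The cytokine genes CSF2 (log2 fold change 0.69, adjusted p = 0.023) and LIF (0.68, adjusted p = 0.0058) rose as well. Against these rises, the cytokine IL6 fell. It read 20.72, 23.06 and 13.43 FPKM with lentivirus-NC and 4.67, 3.92 and 5.26 FPKM with lentivirus-circCSPP1 (log2 fold change -1.81, adjusted p = 0.0039). LTB, a ligand of the non-canonical branch, went from 29.9 ± 1.14 to 9.95 ± 2.32 FPKM (-1.52, adjusted p = 0.0029), and BCL2A1, an antiapoptotic BCL2 relative, from 16.44, 14.44 and 14.26 FPKM to 7.06, 6.48 and 10.28 FPKM (-0.87, adjusted p = 0.020). CXCL2, IL6, LTB and LIF passed without any single library. CXCL8 and CSF2 missed the threshold without any 1 lentivirus-NC library or without lentivirus-circCSPP1 replicate 3 (adjusted p of 0.066 to 0.094), BCL2A1 without any 1 lentivirus-NC library (0.072 to 0.091), and IER3 without lentivirus-NC replicates 2 or 3 or lentivirus-circCSPP1 replicate 3 (0.057 to 0.065).

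**Figure D5:**
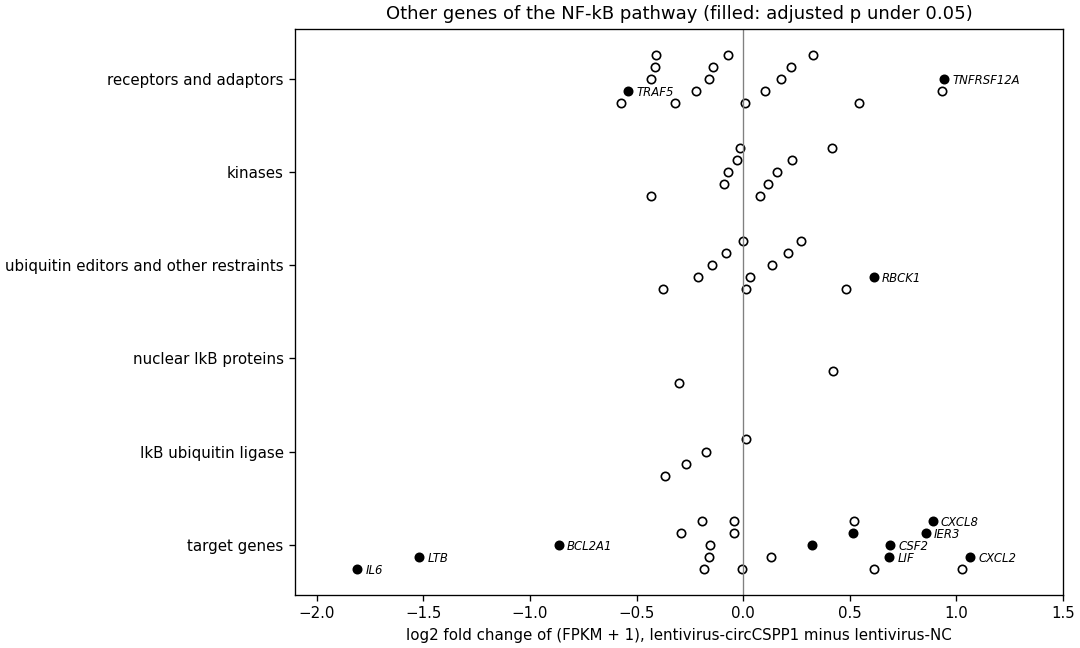
The log2 fold change of FPKM + 1 (x axis, lentivirus-circCSPP1 minus lentivirus-NC, 3 libraries each) of the 68 other NF-κB pathway genes tested, 1 point per gene in 6 lists (rows, with points spread vertically for sight only), filled where the adjusted p is under 0.05 and named for up to 8 genes a list. Filled points in the target genes lie on both sides of 0, from -1.81 (IL6) to 1.06 (CXCL2). None lies in the row labelled kinases, which also holds adaptor or regulatory subunits.

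The study's question about miR-520h, a microRNA it ties to circCSPP1, gives a second sequence feature to read in these genes. The mature miRNA (RefSeq, GRCh38.p14, chr19:53742566-53742587, plus strand) is shown with its seed, bases 2 to 8, in capitals.
hsa-miR-520h: aCAAAGUGcuucccuuuagagu
The longest 3′ UTR of each gene (GENCODE release 29) was searched on the transcript strand for the 6-base match ACTTTG and the 7-base matches CACTTTG and ACTTTGA, which contain it. A 7-base match was present in REL (3 matches), NFKBIB (1), TNFAIP3 (1) and BIRC3 (1), against 32.9% of the 12220 tested genes with a 3′ UTR. RELA and NFKBIE held only a 6-base match, and NFKB1, NFKB2, RELB and NFKBIA held none, against 48.2% of the tested genes with at least the 6-base match. Shown on the strand of the gene (GRCh38) are the 30 bases around 1 match in REL and the 7-base matches in TNFAIP3 and BIRC3. The match is in capitals, and its letters pair with the seed, except the last A of the TNFAIP3 match. That A lies opposite base 1 of the miRNA, outside the seed.
REL (chr2:60924954-60924983): tagaaacctttCACTTTGcttcaaaacgta
TNFAIP3 (chr6:137878467-137878496): tggtagatgattACTTTGAacttgttcagc
BIRC3 (chr11:102338918-102338947): tctgaggccttCACTTTGggttttctgagc
Of the 4 genes with a 7-base match, NFKBIB was higher with lentivirus-circCSPP1 and the other 3 did not pass the test, while RELB and NFKB2, which rose, held no match. The shares above take no account of 3′ UTR length. It was 153 nt in NFKB2, 408 nt in RELB, 502 nt in NFKBIA and 708 nt in NFKB1, the genes without a match. REL had 9075 nt. A 3′ UTR as annotated need not be the one used in DU145, and no match says only that these letters are not in it.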

How the data were processed

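DU145 cells with lentivirus-NC or lentivirus-circCSPP1 were measured in 3 libraries each, grouped by the labels. The authors isolated polyadenylated RNA, sequenced it paired-end on an Illumina NovaSeq instrument and deposited FPKM values rounded to 2 decimals. The submitters' processing notes name hg38, and the aligner, the program behind FPKM and the annotation are not given in the sources used here. FPKM is relative to the library total, so it depends on what the rest of a library holds.

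From these values, log2(FPKM + 1) was fitted by limma 3.58.1 (R 4.3.3, two-sided, trended eBayes, no covariate) for the 12322 genes averaging 1 FPKM or more, with Benjamini-Hochberg adjustment over all of them. Fold changes on this scale understate those of low genes. Sums and shares were compared by exact permutation tests in scipy 1.17.1. The correction for GC content and length subtracted from each library a loess trend over all genes, and the estimate of depth read the step between low FPKM values of transcripts under 800 nt (92.1% to 97.6% whole at a tolerance of 0.15 of a step). Transcripts, coordinates and 3′ UTRs came from GENCODE release 29 on GRCh38, which may not be the authors' annotation. Columns of per-sample values left unused numbered 0. Figures were drawn with matplotlib 3.10.9.

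The genes named are the 10 members, CSPP1, the cell type markers and, in each pathway list, up to 8 genes past an adjusted p of 0.05 by size of change. Genes below the filter on low values are named only to account for the list. The members and lists were chosen with earlier results of these data known. The paper gives a p and a fold threshold for its RNA-seq genes without naming the test behind them, and Student's method for its data in general, so an unmoderated fit was run as an alternative. Alternatives were other pseudocounts (0.1 and 0.01), filters (none, or a mean of 5 FPKM), scalings (TPM, median ratio, quantile), robust eBayes, a replicate block, the GC correction and leaving out each library. Some markers and sequences are not reported here. A second SOD2 row with low values was set aside. The fit was tested on simulated data before use.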

Additional observations from a re-analysis of the deposited data

How the results depend on the processing

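The 10 members kept 4 calls, the same 4 genes, under other pseudocounts, filters, scalings, robust eBayes and the replicate block, and the number ran from 1 to 5 when 1 library was left out. REL is the only member whose direction turned, with a log2 fold change between -0.27 and 0.020 over these fits. The difference in the share of NFKB2 ranged from -0.128 to 1.94 percentage points and that of RELA from -0.421 to 0.729. Of all tested genes, 834 passed without moderation, 923 with the replicate block, 3513 with the GC correction, 2721 with both, and 300 to 3512 with 1 library left out. Of the other pathway genes, 7 passed without moderation, 27 with the GC correction, 26 with the correction and the replicate block, and 5 to 24 with 1 library left out. The cause of these differences was not tested. Libraries with the same number showed little common deviation over all tested genes (correlations of 0.073, 0.0065 and 0.057). The GC trend within the lentivirus-circCSPP1 libraries enters these values, so whether a preparation was shared cannot be told from them. Under the block the 4 members still passed, with the GC correction added NFKB1 joined them and NFKBIE (adjusted p = 0.060) did not, and of the other named genes TRAF5 missed the threshold (adjusted p = 0.057). The low number of libraries limits what can be called: NFKBIA and BIRC3, with an SD of 42.8 and 7.44 FPKM among the lentivirus-NC libraries, have intervals that hold both 0 and sizeable falls. Depth was only estimated, since no counts were used, and gene-level FPKM cannot tell isoforms apart.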
